A study of Mus musculus with 12 samples.

Results

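A culture of mouse glioblastoma cells was compared with mouse astrocytes grown in serum, with 3 RNA-seq libraries of total RNA on each side. The comparison covered 15768 of 53932 gene identifiers, namely every gene that reached 1 FPKM (fragments per kilobase of transcript, scaled to the mapped fragments of the library) in at least 3 of the 6 libraries and was marked OK in all 6. Of these, 12230 were protein coding. All samples are labelled C57BL/6. The Glioblastoma libraries carry the tissue label Cerebella and the age E18.5. How the tumour culture was made, which alterations it carries and in which medium it grew are not given in the sources used here. The Astrocytes libraries carry the tissue label cortex and the age E14.5. The growth text describes 2 origins for such cells, postnatal cortex enriched for the surface transporter GLAST or dissociated neurospheres made to differentiate, both in medium with 10% serum, and does not say which one was used. Tumour state, region, age and possibly medium therefore differ together between both groups and cannot be told apart. Another 6 libraries served only to place levels. NSC are neural stem cells of cortex at E14.5, grown as neurospheres with EGF and FGF2 at 20 ng/mL each. MIM-Astrocytes, also of age E14.5, are astrocytes moved to MIM, a serum-free medium holding a set of metabolites, with FGF2 at 20 ng/mL. The series calls all 4 groups primary cell lines, and whether the 3 libraries per group stem from different cultures or animals is not stated. The p-values therefore cover the scatter among libraries alone, which may be technical.

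Glioblastoma is a malignant brain tumour of glial character. Its cells keep features of neural stem cells and oligodendrocyte progenitors, divide without the normal limits set by the RB and p53 proteins, and often carry growth factor receptor signals that run through the kinase ERK. Astrocytes, the support cells of the brain, take up glutamate, move potassium and water, export lipid on apolipoprotein E and, when stimulated, make complement, acute phase proteins and intermediate filaments. In serum they mostly stop dividing as they mature. Since bulk RNA was measured, fewer cells expressing a gene and less RNA per cell cannot be told apart.

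Most genes differed between the 2 cultures. In limma's test on log2(FPKM + 1), 80.5% of all genes passed an adjusted p of 0.05, with 7728 higher in Glioblastoma (49.0%) and 4971 lower (31.5%). At least 2-fold differences on that scale were seen for 3675 genes higher (23.3%) and 2440 lower (15.5%). For 82.8% of genes, all libraries of one group lay beyond all of the other, 50.3% with Glioblastoma above and 32.5% with Glioblastoma below. With so wide a background, a gene that passes the test is not unusual here, and the sizes below carry more than the calls. A list divided between both directions is not unusual either. The direction split depended on scaling. The deposited values of all genes had a median log2 difference of 0.26 toward Glioblastoma, and 60.9% of called genes were higher. After median-of-ratios scaling the median was 0.00 and the split 6287 higher to 6317 lower. It was 6550 to 6182 after quantile normalization, 4433 to 7425 with a common total, and 6002 to 6365 without mitochondrial genes and small RNAs. Under all 5 scalings 4420 genes stayed higher (28.0%) and 4971 lower (31.5%). Every other scaling moved the median toward Astrocytes, by shifts from -0.22 to -0.53, so a call as lower could hardly be lost. Here and in the lists below, the counts under all 5 scalings therefore test calls as higher and hardly those as lower. Differences are given as deposited, and a relative difference has the median of 0.26 subtracted. The sum of all FPKM values was 891380 ± 83822 in Glioblastoma and 580690 ± 58019 in Astrocytes, and small RNAs held 43.0% and 30.9% of it (exact permutation p = 0.1 for each, the smallest that 3 against 3 libraries allow). The deposited intervals imply 10084000 to 13140000 fragments per library over the 6 libraries. Pairs of values below are mean FPKM ± SD over 3 libraries, Glioblastoma first, and every adjusted p is limma's over all genes tested.

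**Figure D1:**
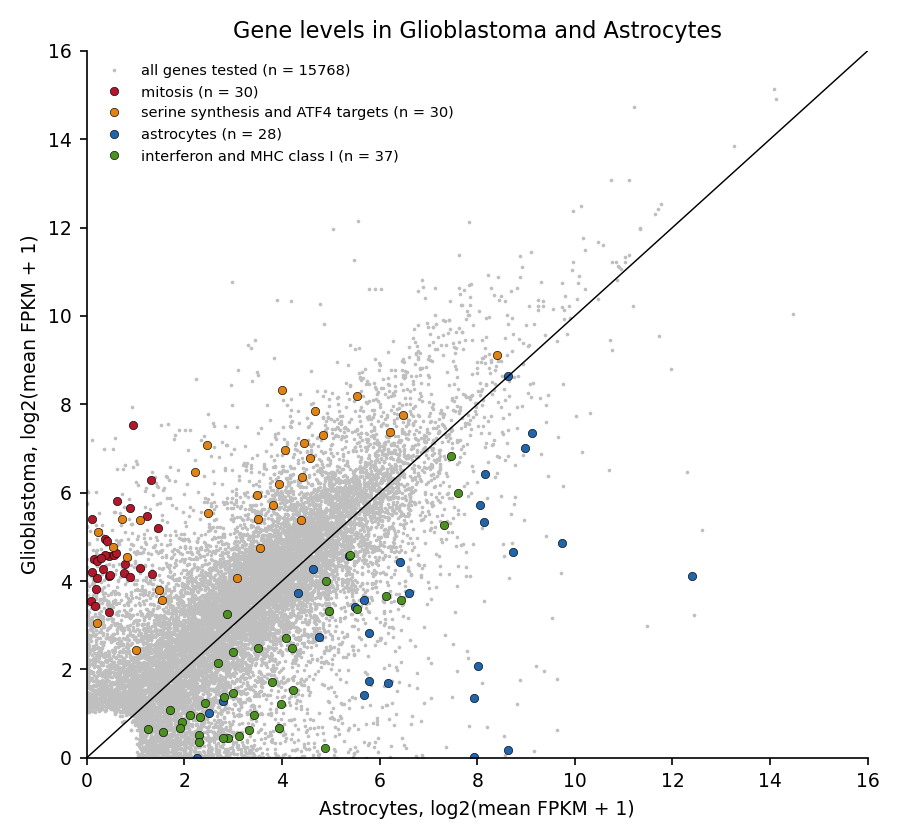
Mean level of every tested gene in Astrocytes (horizontal axis) and Glioblastoma (vertical axis), both as log2(FPKM + 1), with members of 4 gene lists coloured and the diagonal drawn. The mitosis and the serine and ATF4 genes all lie above the diagonal, while the astrocyte genes lie below it except Slc1a3, which lies on it.

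Among the largest differences, genes of cell division, histones, Notch signalling and growth factor feedback were higher in Glioblastoma, and metallothioneins, small heat shock proteins, complement and astrocyte channel genes were lower. Moxd1, a monooxygenase related to dopamine beta-hydroxylase, measured 145, 141 and 149 FPKM in the Glioblastoma libraries and 0.0244, 0.191 and 0.0358 FPKM in the Astrocytes libraries. The Astrocytes libraries were close to 0 and none came near the Glioblastoma libraries (log2 difference 7.08, SE 0.07, adjusted p = 7.68e-08). Rab3b, a small GTPase of vesicle traffic, measured 127, 126 and 126 FPKM in the Glioblastoma libraries and 0.182, 0.333 and 0.299 FPKM in the Astrocytes libraries, with the same lack of overlap (log2 difference 6.65, SE 0.06, adjusted p = 6.91e-08). Tle6, of the Groucho co-repressor family (149 ± 5.30 against 0.489 ± 0.257 FPKM), Cox6a2, a respiratory chain subunit known from muscle (64.0 ± 5.16 against 0.0120 ± 0.0209 FPKM), Gng2, a G protein subunit (94.5 ± 6.49 against 0.926 ± 0.358 FPKM), and Trf, the iron carrier transferrin (104 ± 5.68 against 1.01 ± 0.332 FPKM), followed. Moxd1, Rab3b and Cox6a2 were also low in NSC (0.752 ± 0.0361 FPKM, 0.495 ± 0.240 FPKM and 0.0941 ± 0.0902 FPKM). Of the 20 largest differences upward, 7 were replication-dependent histone genes and another was the ribosomal protein gene Rpl21 (379.6 ± 37.2 against 3.70 ± 0.288 FPKM). Near-identical copies of these genes can share reads, so their single values are uncertain. In the other direction the metallothionein Mt2 had the largest difference, at 9.06, 7.85 and 8.14 FPKM in the Glioblastoma libraries and 5479.7, 6335 and 4876 FPKM in the Astrocytes libraries (log2 difference -9.21, SE 0.12, adjusted p = 7.75e-08). The protease inhibitor A2m (0.119 ± 0.00528 against 573 ± 27.5 FPKM), the small heat shock proteins Hspb8 (0.559 ± 0.0736 against 789 ± 84.5 FPKM) and Cryab (0.397 ± 0.111 against 375 ± 48.7 FPKM), the complement protein C3 (0.0376 ± 0.00979 against 379 ± 17.5 FPKM) and the zinc transporter Slc39a12 (0.00789 ± 0.00759 against 243 ± 18.7 FPKM) were among the next. For each of these last 5 genes all Glioblastoma libraries were below 1 FPKM.

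Genes of cell division were higher with hardly an exception. In mitosis 30 of 30 genes tested were higher and 0 lower (30 and 0 under all 5 scalings), with a median log2 difference of 4.04, and in DNA replication 37 of 38 genes tested were higher and 0 lower (36 and 0 under all 5 scalings), with a median log2 difference of 2.75. Their summed level ran from 902 to 935 FPKM in Glioblastoma and 15.8 to 17.3 FPKM in Astrocytes for mitosis. Mki67, a protein of dividing nuclei widely used to mark proliferation, measured 22.2, 22.2 and 20.981 FPKM in the Glioblastoma libraries and 0.0982, 0.128 and 0.110 FPKM in the Astrocytes libraries. Astrocytes were thus near 0 in every library (log2 difference 4.36, SE 0.05, adjusted p = 7.68e-08). Top2a, the topoisomerase II form of dividing cells, measured 186, 176 and 187 FPKM in the Glioblastoma libraries and 0.890, 0.99048 and 0.952 FPKM in the Astrocytes libraries and showed the largest difference of the list (log2 difference 6.56, SE 0.05, adjusted p = 5.78e-08). The ubiquitin-conjugating enzyme Ube2c, which acts in mitotic exit (41.3 ± 0.509 against 0.0838 ± 0.0447 FPKM), and the spindle motor Kif11 (23.9 ± 0.346 against 0.511 ± 0.0343 FPKM) had the same pattern. Among replication genes, the helicase subunits Mcm5 (49.7 ± 1.02 against 0.848 ± 0.107 FPKM) and Mcm6 (53.9 ± 1.18 against 1.83 ± 0.104 FPKM), the polymerase subunit Pold1 (27.8 ± 0.921 against 1.33 ± 0.0584 FPKM), the cyclin Ccna2 (46.5 ± 1.16 against 2.91 ± 0.0246 FPKM) and Uhrf1, which guides the maintenance methyltransferase to new DNA (32.2 ± 0.919 against 0.266 ± 0.151 FPKM), were higher. Orc1, a subunit of the origin recognition complex, did not pass the test (1.51 ± 0.353 against 0.985 ± 1.20 FPKM, adjusted p = 0.285), and passed it as higher without Astrocytes replicate 1 (adjusted p = 0.00151). Tests against NSC come from a limma fit over all 12 libraries, in which 48.4% of 15754 genes were higher in Glioblastoma than in NSC and 23.4% lower. In that fit 44.5% of genes were higher in Glioblastoma than in MIM-Astrocytes and 27.7% lower. NSC, which also divide, held Mki67 at 20.3 ± 1.16 FPKM, a difference that did not pass the test (log2 difference from NSC 0.10, adjusted p = 0.0947), whereas their Top2a was 47.9 ± 4.86 FPKM (log2 difference from NSC 1.92, adjusted p = 2.87e-09) and their Mcm5 8.70 ± 0.576 FPKM (log2 difference from NSC 2.39, adjusted p = 1.48e-09). MIM-Astrocytes exceeded Glioblastoma in Mki67 (51.9 ± 0.887 FPKM), Ube2c (46.976 ± 3.82 FPKM) and Ccna2 (56.1 ± 2.35 FPKM), each past the test. Their Kif11 did not differ beyond the test (22.9 ± 1.11 FPKM, adjusted p = 0.338). Their Top2a (149.7 ± 6.08 FPKM), Mcm5 (23.8 ± 2.64 FPKM), Mcm6, Pold1 and Uhrf1 were below Glioblastoma. High levels of division genes were thus not particular to Glioblastoma.

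Since the mitosis, ATF4 and metallothionein genes moved as blocks, their promoters were searched for a motif known for each group. RefSeq windows on GRCm38.p6, from 250 bases before to 50 bases after the start site, are printed 5′ to 3′ on the strand of the gene. For mitosis the letters were TTTGAA, the cell cycle homology region, on either strand, and capitals mark each match in Top2a (chr11:99024140-99024439, minus strand). For the ATF4 group they were TGATGNAA, the composite C/EBP-ATF element, shown in Asns (chr6:7693160-7693459, minus strand), Trib3 (chr2:152344011-152344310, minus strand) and Chac1 (chr2:119350992-119351291, plus strand). For metallothioneins they were TGCACNC or TGCGCNC, the core of the metal response element, shown in Mt1 (chr8:94178839-94179138, plus strand) and Mt2 (chr8:94172368-94172667, plus strand).
Top2a: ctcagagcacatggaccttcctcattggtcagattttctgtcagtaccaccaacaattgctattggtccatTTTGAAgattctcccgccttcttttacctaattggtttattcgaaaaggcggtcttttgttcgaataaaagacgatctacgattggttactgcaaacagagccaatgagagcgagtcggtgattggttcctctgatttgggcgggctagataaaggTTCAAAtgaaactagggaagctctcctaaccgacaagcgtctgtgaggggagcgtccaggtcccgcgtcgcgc
Asns: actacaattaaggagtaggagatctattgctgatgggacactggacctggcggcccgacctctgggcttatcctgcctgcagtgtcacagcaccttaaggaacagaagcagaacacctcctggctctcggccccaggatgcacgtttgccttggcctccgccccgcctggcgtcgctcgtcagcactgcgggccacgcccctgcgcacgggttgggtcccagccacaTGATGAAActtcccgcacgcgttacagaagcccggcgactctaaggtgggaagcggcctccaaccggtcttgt
Trib3: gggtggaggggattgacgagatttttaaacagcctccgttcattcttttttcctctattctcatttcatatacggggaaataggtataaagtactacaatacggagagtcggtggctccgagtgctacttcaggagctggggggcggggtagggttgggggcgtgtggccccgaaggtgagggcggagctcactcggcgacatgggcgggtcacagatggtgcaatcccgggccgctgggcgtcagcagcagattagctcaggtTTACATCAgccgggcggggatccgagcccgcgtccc
Chac1: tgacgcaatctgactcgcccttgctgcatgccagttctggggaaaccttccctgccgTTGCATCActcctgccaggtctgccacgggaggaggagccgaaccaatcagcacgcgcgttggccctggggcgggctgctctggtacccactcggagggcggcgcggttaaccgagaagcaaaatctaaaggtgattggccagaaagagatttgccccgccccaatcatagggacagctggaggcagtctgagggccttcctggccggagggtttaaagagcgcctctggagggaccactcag
Mt1: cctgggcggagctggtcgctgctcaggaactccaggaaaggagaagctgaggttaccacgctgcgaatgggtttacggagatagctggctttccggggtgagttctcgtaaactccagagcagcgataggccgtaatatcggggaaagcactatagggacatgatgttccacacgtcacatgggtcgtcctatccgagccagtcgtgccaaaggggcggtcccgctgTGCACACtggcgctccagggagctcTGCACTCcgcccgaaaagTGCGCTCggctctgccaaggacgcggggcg
Mt2: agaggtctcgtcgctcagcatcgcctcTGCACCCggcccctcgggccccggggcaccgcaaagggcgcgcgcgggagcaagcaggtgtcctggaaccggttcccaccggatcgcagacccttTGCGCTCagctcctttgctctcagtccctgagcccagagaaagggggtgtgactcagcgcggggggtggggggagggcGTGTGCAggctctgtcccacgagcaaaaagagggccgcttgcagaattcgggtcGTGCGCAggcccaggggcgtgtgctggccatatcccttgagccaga

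TTTGAA stood in 23 of 28 promoter windows of the mitosis list, against 17.9% of all 32851 windows. CCAAT, the box that often stands beside it, was found on either strand in 24 of those 28 windows, against 37.4% of all. TGATGNAA stood in 10 of 33 windows of the serine and ATF4 list, Asns, Trib3, Chac1, Nupr1 and Pycr1 among them, against 3.97% of all windows. The metal response letters matched 3 times in Mt1, 4 times in Mt2 and once in Mt3, and stood in 25.7% of all windows, so they are common. A match describes letters and does not show that a factor binds.

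**Figure D2:**
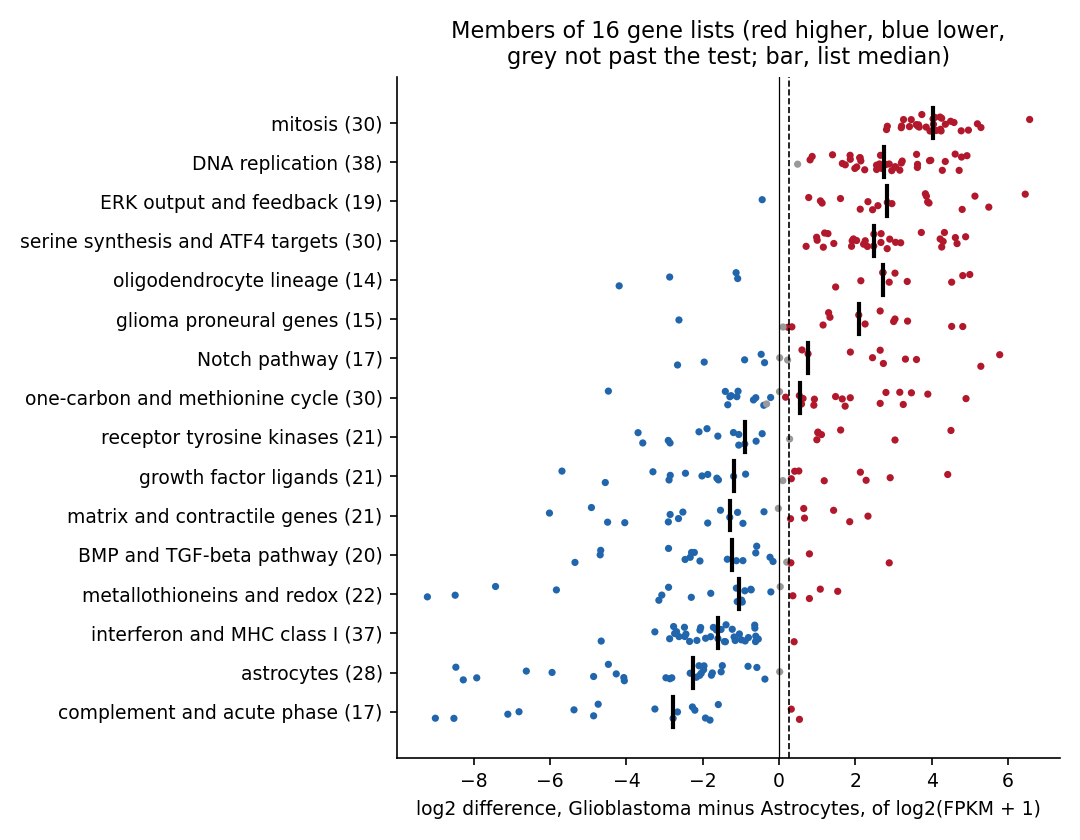
Log2 difference, Glioblastoma minus Astrocytes, of each tested member of 16 gene lists, with the median of each list as a bar and the median of all genes (0.26) as a dashed line. The medians of mitosis, DNA replication, ERK output and ATF4 targets lie to the right of that line. Those of astrocytes, complement and interferon lie to the left. Some members of ERK output, complement and interferon lie across it, and receptor and ligand genes spread to both sides.

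Positive and negative regulators of entry into the cell cycle were both among the higher genes. The cyclin Ccnd1, which with its kinases inactivates RB, measured 355, 338 and 347 FPKM in the Glioblastoma libraries and 6.81, 7.25 and 6.11 FPKM in the Astrocytes libraries. The groups lay far apart (log2 difference 5.49, SE 0.07, adjusted p = 7.87e-08), and NSC (9.96 ± 1.28 FPKM) and MIM-Astrocytes (23.6 ± 0.860 FPKM) were nearer to Astrocytes than to Glioblastoma. Its partner kinase Cdk4 was 440.4 ± 15.1 against 86.7 ± 6.66 FPKM and Cdk6 3.61 ± 0.201 against 0.585 ± 0.107 FPKM, while NSC held Cdk4 at 421 ± 31.8 FPKM. Cdkn2a, the locus of the inhibitors INK4a and ARF that is often deleted in glioblastoma, was well detected: it measured 106, 107 and 114 FPKM in the Glioblastoma libraries and 9.19, 10.7 and 8.66 FPKM in the Astrocytes libraries (log2 difference 3.39, SE 0.08, adjusted p = 3.70e-07), against 8.57 ± 1.06 FPKM in NSC. Trp53, which encodes p53, was 16.8 ± 0.332 against 5.97 ± 0.275 FPKM (log2 difference 1.35, SE 0.05, adjusted p = 2.25e-06), and its inhibitor Mdm2 27.6 ± 2.26 against 21.2 ± 0.657 FPKM, a call that did not hold under all 5 scalings. Rb1 itself was lower (22.1 ± 2.83 against 46.6 ± 2.22 FPKM, log2 difference -1.05, SE 0.10, adjusted p = 9.62e-05) and its relative Rbl1 higher (6.38 ± 0.304 against 0.658 ± 0.117 FPKM). FPKM per gene do not show whether any of these transcripts carries a mutation. Of p53 target genes, 9 of 22 were higher and 10 lower (6 and 10 under all 5 scalings). The kinase Plk2 (68.6 ± 1.97 against 1.73 ± 0.384 FPKM) and the stress gene Ddit4 (80.4 ± 2.20 against 20.2 ± 1.79 FPKM) were higher, while the death receptor Fas (0.423 ± 0.107 against 12.5 ± 1.16 FPKM), Sesn1 (10.2 ± 0.158 against 51.7 ± 4.19 FPKM) and Trp53inp1 (8.42 ± 0.358 against 27.4 ± 1.22 FPKM) were lower, and Cdkn1a, the p21 inhibitor, did not pass the test as deposited (10.7 ± 0.301 against 11.2 ± 0.716 FPKM, adjusted p = 0.443) but was lower under each of the other 4 scalings. Nf1, a tumour suppressor of the RAS route, was 24.0 against 19.4 FPKM, a call that did not hold under all 5 scalings.

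Targets and feedback inhibitors of ERK were higher, while most receptor genes upstream of it were lower. In ERK output and feedback 18 of 19 genes tested were higher and 1 lower (18 and 1 under all 5 scalings), with a median log2 difference of 2.84, and the exception was the receptor Epha2 (0.723 ± 0.113 against 1.34 ± 0.131 FPKM). Dusp6, a phosphatase that switches ERK off and is itself induced by it, measured 367, 363 and 371 FPKM in the Glioblastoma libraries and 8.82, 10.035 and 9.70 FPKM in the Astrocytes libraries. All Glioblastoma libraries were far above all Astrocytes libraries (log2 difference 5.13, SE 0.06, adjusted p = 7.68e-08). Spry1, a feedback inhibitor of receptor signals, measured 126, 123 and 126 FPKM in the Glioblastoma libraries and 0.423, 0.561 and 0.353 FPKM in the Astrocytes libraries (log2 difference 6.45, SE 0.07, adjusted p = 7.68e-08). The ETS factor Etv5 (88.8 ± 3.25 against 5.05 ± 0.245 FPKM), Ier3 (52.97 ± 2.50 against 5.98 ± 0.830 FPKM) and Myc (23.3 ± 1.43 against 3.45 ± 0.0328 FPKM) were also higher. NSC, kept with EGF and FGF2, held Dusp6 at 38.1 ± 3.48 FPKM and Spry1 at 10.029 ± 0.667 FPKM, both below Glioblastoma (log2 difference from NSC 3.24, adjusted p = 9.32e-11 and log2 difference from NSC 3.52, adjusted p = 7.34e-11).

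Receptor tyrosine kinases carry growth factor signals into the cell. Of these genes 7 of 21 tested were higher and 13 lower (7 and 13 under all 5 scalings). Egfr, the receptor most often amplified in human glioblastoma, measured 11.987, 13.5 and 12.9 FPKM in the Glioblastoma libraries and 19.7, 20.4 and 19.7 FPKM in the Astrocytes libraries. Its Glioblastoma libraries were all below the Astrocytes libraries (log2 difference -0.60, SE 0.06, adjusted p = 1.26e-04) and far below NSC at 170.3 ± 3.19 FPKM (log2 difference from NSC -3.64, adjusted p = 2.28e-11). Pdgfra, the receptor of oligodendrocyte progenitors, measured 10.5, 10.007 and 10.3 FPKM in the Glioblastoma libraries and 0.401, 0.344 and 0.37954 FPKM in the Astrocytes libraries and was higher (log2 difference 3.04, SE 0.05, adjusted p = 1.35e-07). The collagen receptor Ddr2 was higher than in both other cultures (50.5 ± 3.16 against 1.28 ± 0.249 FPKM, NSC 0.260 ± 0.20004 FPKM), and Igf1r (11.8 ± 0.837 against 5.31 ± 0.664 FPKM) and Insr (21.8 ± 0.651 against 9.55 ± 0.731 FPKM) were higher. The neurotrophin receptor Ntrk2 (13.9 ± 0.173 against 192 ± 7.28 FPKM), the FGF receptors Fgfr2 (6.38 ± 1.09 against 86.0 ± 1.8016 FPKM) and Fgfr1 (45.2 ± 2.29 against 95.3 ± 7.97 FPKM), Axl (19.3 ± 1.71 against 149.99 ± 2.32 FPKM), Ddr1 (27.2 ± 0.426 against 203 ± 5.01 FPKM), Erbb2 (0.517 ± 0.0239 against 4.64 ± 0.703 FPKM) and Met (0.607 ± 0.0864 against 3.89 ± 0.382 FPKM) were lower. Among ligands, 8 of 21 were higher and 12 lower (6 and 12 under all 5 scalings). Vegfa, which drives vessel growth, measured 179, 179.9 and 180.1 FPKM in the Glioblastoma libraries and 7.33, 8.34 and 6.76 FPKM in the Astrocytes libraries, with no overlap (log2 difference 4.42, SE 0.08, adjusted p = 1.35e-07), and NSC held 5.34 ± 0.764 FPKM. The EGF receptor ligand Areg (3.90 ± 0.518 against 0.00580 ± 0.010039 FPKM), the neurotrophin Bdnf (14.2 ± 0.205 against 1.02 ± 0.0524 FPKM) and pleiotrophin, Ptn (299 ± 11.5 against 67.7 ± 6.99 FPKM), were higher too, the last below its NSC level of 752 ± 76.5 FPKM. Cntf, the ciliary neurotrophic factor of astrocytes (1.57 ± 0.199 against 132 ± 17.2 FPKM), Hbegf (5.28 ± 0.509 against 61.0 ± 6.38 FPKM) and Pdgfd (0.118 ± 0.0434 against 25.3 ± 2.72 FPKM) were lower.

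**Figure D3:**
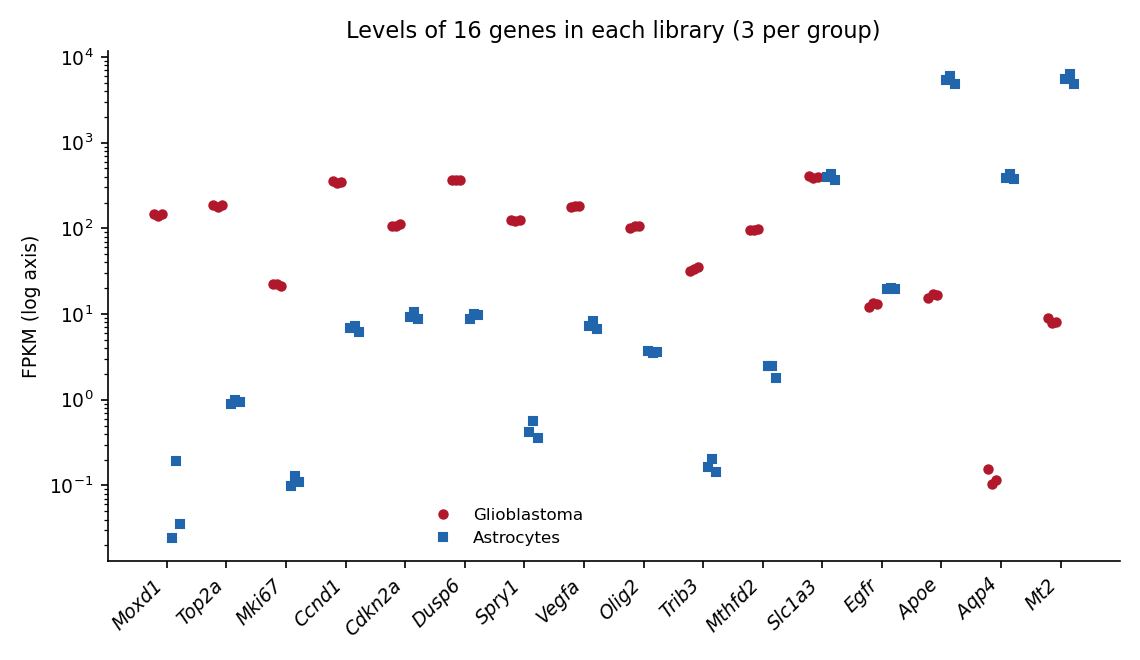
FPKM of 16 genes in each of the 6 libraries on a log axis (values below 0.01 drawn at 0.01), Glioblastoma and Astrocytes as separate point series. Slc1a3 is the gene whose groups mix, at means of 399.6 against 396 FPKM, and the points of each other gene fall into separate ranges.

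Tested transcripts of oligodendrocyte progenitors and of the proneural glioma class were mostly higher in Glioblastoma. Of 26 genes listed for the oligodendrocyte lineage, 14 reached the filter. Of these 10 were higher and 4 lower (10 and 4 under all 5 scalings), with a median log2 difference of 2.72. Members near 0 in Astrocytes, such as Nkx2-2 and Lhfpl3, could pass the filter only by their Glioblastoma level. The count and median are therefore no independent sign. Sox10, also listed, was below 1 FPKM in every library of both groups. Olig2, a factor of progenitors that glioma cells depend on, measured 102, 106 and 108 FPKM in the Glioblastoma libraries and 3.71, 3.56 and 3.62 FPKM in the Astrocytes libraries. The libraries of each group were close to one another and the groups far apart (log2 difference 4.52, SE 0.05, adjusted p = 7.68e-08), and NSC at 104 ± 6.87 FPKM did not differ beyond the test from Glioblastoma (log2 difference 0.02, adjusted p = 0.836). Nkx2-2, which acts beside Olig2 in this lineage, measured 29.1, 27.6 and 27.4 FPKM in the Glioblastoma libraries and 0.0598, 0 and 0.0406 FPKM in the Astrocytes libraries (log2 difference 4.81, SE 0.06, adjusted p = 7.68e-08), and NSC held only 2.17 ± 0.142 FPKM. The proteoglycan Cspg4, known as NG2 (14.6 ± 0.291 against 1.37 ± 0.198 FPKM), and Lhfpl3 (46.5 ± 1.97 against 0.493 ± 0.136 FPKM) were higher. The myelin gene Cnp was lower (21.1 ± 0.718 against 45.9 ± 3.59 FPKM). In the proneural list 13 of 15 genes tested were higher and 1 lower (11 and 1 under all 5 scalings), with a median log2 difference of 2.09. Sox2 (136 ± 6.48 against 61.0 ± 7.07 FPKM), Sox11 (23.7 ± 0.496 against 1.40 ± 0.0268 FPKM) and Dcx (3.40 ± 0.585 against 0.0286 ± 0.0118 FPKM) were among the higher genes, and the adhesion molecule Nrcam was lower (13.8 ± 0.791 against 90.2 ± 5.71 FPKM). In the mesenchymal list the directions were mixed, with 10 of 23 higher and 11 lower (7 and 11 under all 5 scalings). Timp1 (29.4 ± 1.44 against 2.25 ± 0.70025 FPKM) and Emp3 (18.7 ± 1.72 against 1.94 ± 0.563 FPKM) were higher. Cd44 (5.66 ± 0.277 against 28.3 ± 0.613 FPKM), S100a4 (0.796 ± 0.112 against 34.2 ± 4.31 FPKM) and Anxa2 (6.76 ± 0.238 against 75.7 ± 8.12 FPKM) were lower.

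Stem cell markers did not move as a block. Of the neural stem and progenitor list 10 of 24 genes were higher and 10 lower (6 and 10 under all 5 scalings). Nestin, Nes, an intermediate filament of stem cells, was 46.6 ± 1.01 against 43.5 ± 3.99 FPKM and did not pass the test as deposited (adjusted p = 0.258), while the other 4 scalings called it lower, by log2 differences of -0.20 to -0.50. Pax6 (3.59 ± 0.248 against 22.1 ± 2.03 FPKM), the RNA-binding protein Msi1 (10.3 ± 0.887 against 39.5 ± 4.17 FPKM) and Id4 (0.987 ± 0.144 against 79.8 ± 6.52 FPKM) were lower. Notch signalling holds progenitors undifferentiated. Its genes gave counts near the shares over all genes (49.0% higher and 31.5% lower), with 10 of 17 genes higher and 5 lower (8 and 5 under all 5 scalings). The ligand Jag1 measured 46.4, 44.3 and 44.9 FPKM in the Glioblastoma libraries and 0.239, 0.105 and 0.216 FPKM in the Astrocytes libraries (log2 difference 5.28, SE 0.06, adjusted p = 7.68e-08), and the ligand Dll1 was 27.6 ± 1.32 against 1.88 ± 0.102 FPKM. The targets Hes5 (91.4 ± 4.18 against 0.684 ± 0.0998 FPKM), Hes1 (53.9 ± 0.410 against 7.28 ± 0.459 FPKM) and Nrarp (12.6 ± 0.237 against 0.120 ± 0.0123 FPKM) were higher, whereas the receptors Notch2 (3.4977 ± 0.0960 against 27.5 ± 2.62 FPKM) and Notch3 (2.24 ± 0.207 against 5.06 ± 0.534 FPKM) and the target Hey1 (16.8 ± 0.635 against 68.7 ± 7.50 FPKM) were lower. NSC held Hes5 at 113 ± 12.8 FPKM and Dll1 at 81.6 ± 3.89 FPKM, at or above Glioblastoma, but Jag1 at only 3.71 ± 0.158 FPKM. BMP and TGF-beta genes were mostly lower, with 3 of 20 higher and 16 lower (2 and 16 under all 5 scalings). The ligand Bmp6 (0.0393 ± 0.0117 against 25.5 ± 1.69 FPKM), the inhibitor Nog (0.165 ± 0.0239 against 29.1 ± 3.26 FPKM) and the target Smad6 (0.151 ± 0.0287 against 7.57 ± 0.684 FPKM) were lower, and the ligand Bmp7 was higher (12.013 ± 0.422 against 0.760 ± 0.0277 FPKM).

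Almost all astrocyte genes were lower in Glioblastoma. In the astrocyte list 0 of 28 genes tested were higher and 27 lower (0 and 27 under all 5 scalings), with a median log2 difference of -2.25, 24 of them at least 2-fold. Aqp4, the water channel of astrocyte end-feet, measured 0.157, 0.103 and 0.115 FPKM in the Glioblastoma libraries and 391, 427 and 373 FPKM in the Astrocytes libraries. No Glioblastoma library reached 1 FPKM (log2 difference -8.47, SE 0.07, adjusted p = 5.78e-08). Gfap, the astrocyte intermediate filament, measured 2.95, 3.11 and 3.55 FPKM in the Glioblastoma libraries and 259.6, 273 and 241 FPKM in the Astrocytes libraries (log2 difference -5.95, SE 0.08, adjusted p = 7.87e-08). Aldh1l1, a cytosolic folate dehydrogenase by which astrocytes are often recognised, was 2.24 ± 0.239 against 70.8 ± 5.82 FPKM, the glutamate transporter Slc1a2 6.12 ± 0.901 against 54.3 ± 2.99 FPKM and S100b 1.43 ± 0.125 against 5.97 ± 0.573 FPKM. Slc1a3, the transporter GLAST, was alone in not passing the test as deposited: it measured 409.7, 387 and 402 FPKM in the Glioblastoma libraries and 399, 427 and 362 FPKM in the Astrocytes libraries, with overlapping groups (adjusted p = 0.872). Under the other 4 scalings it too was lower, by log2 differences of -0.29 to -0.80. Apoe, the lipid carrier of the brain, measured 15.5, 17.008 and 16.6 FPKM in the Glioblastoma libraries and 5312, 6022 and 4791 FPKM in the Astrocytes libraries (log2 difference -8.27, SE 0.11, adjusted p = 7.87e-08). It was lower than in every other culture, since NSC held 3685 ± 345 FPKM and MIM-Astrocytes 7459 ± 499 FPKM. The same was true of Aldh1l1 (NSC 97.2 ± 7.02 FPKM), while Gfap was also low in NSC (0.964 ± 0.169 FPKM). The cholesterol exporter Abca1 (4.82 ± 0.123 against 58.7 ± 0.631 FPKM) and the esterifying enzyme Lcat (0.688 ± 0.0884 against 60.5 ± 4.57 FPKM) were lower, and lipoprotein lipase, Lpl, higher (6.91 ± 0.197 against 0.179 ± 0.0487 FPKM).

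Reactive and inflamed astrocyte genes were lower in most cases. Of the reactive list 25 of 33 genes were lower and 8 higher (25 and 6 under all 5 scalings). Among the higher ones, S100a10 measured 50.4, 56.7 and 61.6 FPKM in the Glioblastoma libraries and 16.3, 16.6 and 14.9 FPKM in the Astrocytes libraries. Emp1 measured 10.6, 11.1 and 10.5 FPKM in the Glioblastoma libraries and 2.84, 4.16 and 3.38 FPKM in the Astrocytes libraries. In complement and acute phase 2 of 17 genes tested were higher and 15 lower (0 and 15 under all 5 scalings), with a median log2 difference of -2.77. Besides C3 and A2m above, the copper carrier Cp (2.39 ± 0.166 against 466 ± 21.8 FPKM), the endotoxin-binding protein Lbp (0.0399 ± 0.0383 against 116 ± 11.964 FPKM) and the iron-binding lipocalin Lcn2 (0.114 ± 0.0230 against 45.2 ± 4.51 FPKM) were lower. Serpina3n, a protease inhibitor of reactive astrocytes, was 19.4 ± 0.255 against 15.4 ± 1.11 FPKM, and its call did not hold under all scalings. Interferon and MHC class I genes were lower almost without exception: 1 of 37 genes tested were higher and 36 lower (0 and 36 under all 5 scalings), with a median log2 difference of -1.60. Ifit3, an antiviral interferon target, measured 0.114, 0.203 and 0.20017 FPKM in the Glioblastoma libraries and 29.6, 30.9 and 25.6 FPKM in the Astrocytes libraries (log2 difference -4.66, SE 0.09, adjusted p = 1.46e-07), and Oasl2 (0.607 ± 0.0861 against 14.3 ± 1.32 FPKM) and Gbp2 (0.545 ± 0.0519 against 8.98 ± 1.18 FPKM) followed. The antigen-presenting gene H2-D1 was 10.9 ± 0.0847 against 86.0 ± 7.62 FPKM, with reads that near-identical MHC genes may share. The transcription factor Irf1 was the exception (8.60 ± 0.959 against 6.30 ± 0.629 FPKM), a call that did not hold under all scalings. NSC were also low, with Ifit3 at 0.607 ± 0.107 FPKM and H2-D1 at 15.972 ± 0.865 FPKM. The receptor chain Il6st (52.2 ± 5.86 against 432 ± 20.9 FPKM) and the cytokine Csf1 (7.31 ± 0.159 against 68.2 ± 1.51 FPKM) were lower, and the alarmin Il33 higher (13.2 ± 0.726 against 1.20 ± 0.157 FPKM).

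Metallothioneins, small proteins that hold zinc and copper, were among the largest differences downward. Mt1 measured 33.3, 34.1 and 37.2 FPKM in the Glioblastoma libraries and 6060.4, 7058 and 5451 FPKM in the Astrocytes libraries (log2 difference -7.43, SE 0.12, adjusted p = 1.12e-07), and Mt3, the brain form, 5.69, 6.94 and 8.26 FPKM in the Glioblastoma libraries and 2957, 3060.2 and 2488 FPKM in the Astrocytes libraries (log2 difference -8.48, SE 0.14, adjusted p = 1.28e-07). Every Astrocytes library was far above every Glioblastoma library for both. NSC lay between, with Mt1 at 900.1 ± 92.2 FPKM, Mt2 at 511 ± 66.3 FPKM and Mt3 at 246 ± 18.047 FPKM. In the wider list of metallothioneins and redox genes 17 of 22 were lower and 4 higher (17 and 2 under all 5 scalings). The peroxiredoxin Prdx6 was 87.0 ± 0.921 against 5032 ± 576 FPKM, and the glutathione peroxidase Gpx3 (6.26 ± 0.0432 against 1.51 ± 0.182 FPKM) and the transferase Gstm5 (132 ± 6.35 against 62.1 ± 8.68 FPKM) were higher.

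Genes of amino acid supply known as targets of the stress factor ATF4 were all higher. In this list 30 of 30 genes tested were higher and 0 lower (29 and 0 under all 5 scalings), with a median log2 difference of 2.48, with a range from 0.71 to 4.89. Trib3, a pseudokinase induced by ATF4, measured 32.0, 33.6 and 35.3 FPKM in the Glioblastoma libraries and 0.164, 0.203 and 0.142 FPKM in the Astrocytes libraries. All Astrocytes libraries were below 1 FPKM (log2 difference 4.89, SE 0.06, adjusted p = 7.68e-08). Chac1, which breaks down glutathione, measured 40.3, 41.3 and 41.5 FPKM in the Glioblastoma libraries and 0.69957, 0.683 and 0.601 FPKM in the Astrocytes libraries (log2 difference 4.66, SE 0.05, adjusted p = 7.68e-08). Asns, which makes asparagine, measured 309.5, 313 and 338 FPKM in the Glioblastoma libraries and 15.6, 15.8 and 13.5 FPKM in the Astrocytes libraries (log2 difference 4.33, SE 0.08, adjusted p = 1.52e-07). Nupr1 (87.8 ± 1.51 against 3.64 ± 0.223 FPKM), the proline enzyme Pycr1 (26.2 ± 0.545 against 0.460 ± 0.0639 FPKM) and Atf4 itself (229 ± 7.26 against 24.6 ± 4.96 FPKM) were higher. The amino acid transporter chain Slc3a2 was the member whose call did not hold under all scalings (552 ± 2.58 against 338 ± 29.6 FPKM). NSC were low as well, at 10.7 ± 1.56 FPKM for Asns, 0.0711 ± 0.00953 FPKM for Trib3 and 0.164 ± 0.0447 FPKM for Chac1, and so were MIM-Astrocytes, at 37.2 ± 0.960 FPKM for Asns.

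Genes of folate and methionine metabolism went in both directions, as did all genes tested (49.0% higher and 31.5% lower). Serine feeds 1-carbon units to folate, and the title of the series names such metabolites. Of the 1-carbon and methionine list 17 of 30 genes were higher and 11 lower (13 and 11 under all 5 scalings). Mthfd2, a mitochondrial dehydrogenase of embryonic and tumour cells, measured 94.5, 94.7 and 97.2 FPKM in the Glioblastoma libraries and 2.46, 2.50 and 1.8028 FPKM in the Astrocytes libraries (log2 difference 4.90, SE 0.10, adjusted p = 1.76e-07). Shmt2, which splits serine in mitochondria, measured 202, 195 and 198 FPKM in the Glioblastoma libraries and 12.4, 13.5 and 11.4 FPKM in the Astrocytes libraries (log2 difference 3.90, SE 0.07, adjusted p = 1.46e-07). Mthfd1l (21.049 ± 0.471 against 0.996 ± 0.0993 FPKM) and Aldh1l2 (90.9 ± 0.415 against 8.65 ± 0.567 FPKM), also of mitochondria, were higher, and each of the 4 exceeded NSC (for Mthfd2 1.19 ± 0.452 FPKM, for Shmt2 16.3 ± 1.20 FPKM). The cytosolic Shmt1 was higher as well (25.2 ± 1.49 against 1.93 ± 0.190 FPKM), and Gldc (20.6 ± 0.916 against 44.5 ± 3.34 FPKM) and Amt (29.8 ± 0.901 against 77.5 ± 9.03 FPKM) of the mitochondrial glycine cleavage system were lower. The methionine synthase Mtr was lower (6.09 ± 0.142 against 15.9 ± 0.103 FPKM, log2 difference -1.26, SE 0.05, adjusted p = 1.79e-06) and so was the cytosolic Mthfs (4.9953 ± 0.511 against 13.6 ± 0.748 FPKM). Mat2a, which makes S-adenosylmethionine (110.2 ± 5.14 against 97.7 ± 3.09 FPKM), and Ahcy, which clears its product (11.2 ± 3.15 against 6.96 ± 1.09 FPKM), passed the test as deposited but not under all 5 scalings. For Mat2a the sign turned under the other 4 scalings, and for Ahcy the groups overlapped. Mtap, which recovers methionine from polyamine synthesis and is often lost with CDKN2A in human tumours, was higher (11.2 ± 0.215 against 5.49 ± 0.587 FPKM, log2 difference 0.91, SE 0.08, adjusted p = 6.19e-05). Of polyamine genes 3 of 15 were higher and 6 lower (2 and 6 under all 5 scalings). The synthases Srm (24.7 ± 0.378 against 9.83 ± 1.87 FPKM) and Sms (21.3 ± 5.28 against 4.97 ± 1.22 FPKM) were higher and the breakdown enzymes Sat1 (28.8 ± 0.556 against 63.2 ± 5.78 FPKM) and Smox (25.1 ± 3.25 against 50.4 ± 5.22 FPKM) lower, as was the decarboxylase Amd2 of synthesis (3.42 ± 1.16 against 11.5 ± 1.52 FPKM).

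**Figure D4:**
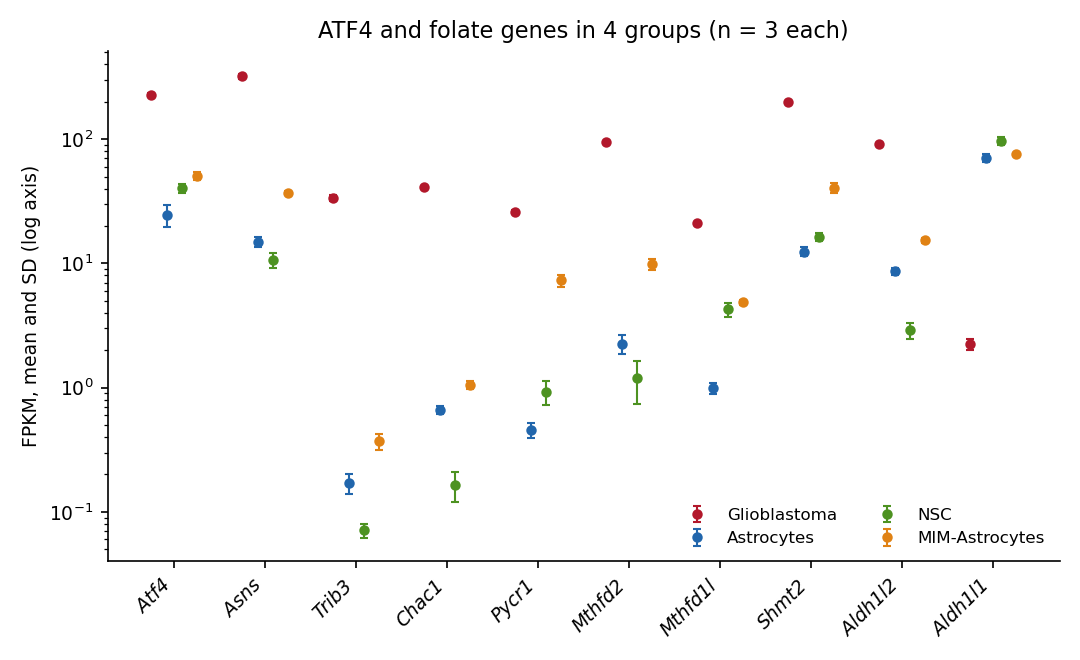
Mean FPKM on a log axis of 10 ATF4 and folate genes in Glioblastoma, Astrocytes, NSC and MIM-Astrocytes, with bars of 1 SD over 3 libraries. The Glioblastoma points are the highest for 9 of the genes, and Aldh1l1, the cytosolic counterpart of Aldh1l2, is lowest in Glioblastoma.

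Like all genes tested (49.0% higher and 31.5% lower), matrix genes went in both directions within each family. Collagens divided into 9 higher and 10 lower of 20 (5 and 10 under all 5 scalings). Integrins and laminins divided into 11 and 9 of 21 (8 and 9 under all 5 scalings). Proteases with their inhibitors divided into 15 and 12 of 27 (10 and 12 under all 5 scalings). The laminin chains Lama4 (21.006 ± 1.40 against 0.0611 ± 0.0260 FPKM) and Lamb1 (17.5 ± 1.15 against 0.807 ± 0.199 FPKM) were higher, and Lamb2 lower (22.7 ± 1.34 against 148 ± 3.43 FPKM). The integrin chains Itga4 (8.59 ± 0.465 against 0.00725 ± 0.00628 FPKM) and Itga5 (10.041 ± 0.596 against 0.988 ± 0.235 FPKM) were higher, and Itga7 (8.96 ± 0.274 against 53.1 ± 3.86 FPKM) and Itgb8 (8.03 ± 0.138 against 37.6 ± 0.586 FPKM) lower. Of collagens, Col18a1 (16.965 ± 2.34 against 0.238 ± 0.0547 FPKM) and Col6a1 (4.16 ± 0.108 against 0.107 ± 0.0406 FPKM) were higher. Col4a5 (10.5 ± 0.772 against 67.5 ± 5.35 FPKM), Col4a6 (0.186 ± 0.0230 against 20.8 ± 1.4992 FPKM) and Col8a1 (0.0190 ± 0.00933 against 6.25 ± 0.552 FPKM) were lower. The proteases Adam12 (52.3 ± 3.21 against 1.71 ± 0.0776 FPKM), Adamts4 (16.3 ± 0.594 against 0.730 ± 0.145 FPKM) and Mmp2 (6.90 ± 0.405 against 0.0925 ± 0.0652 FPKM) were higher, while the inhibitors Timp3 (6.77 ± 0.178 against 119 ± 4.33 FPKM) and Serpinf1 (17.2 ± 2.09 against 846 ± 88.6 FPKM) and the lysosomal Ctsb (70.4 ± 1.84 against 865 ± 64.9 FPKM) were lower. In the list of matrix, contractile and YAP target genes 6 of 21 genes tested were higher and 14 lower (3 and 14 under all 5 scalings), with a median log2 difference of -1.29. Tagln (0.364 ± 0.225 against 86.8 ± 10.036 FPKM), Thbs1 (4.99 ± 0.203 against 179.6 ± 4.99 FPKM), Cyr61 (2.22 ± 0.225 against 71.6 ± 6.99 FPKM) and Ctgf (0.130 ± 0.155 against 17.5 ± 0.651 FPKM) were among the lower genes, and the matrix genes Fbln2 (5.18 ± 0.623 against 0.226 ± 0.0166 FPKM), Fbn1 (4.66 ± 0.0574 against 0.571 ± 0.0585 FPKM) and Eln (3.01 ± 0.207 against 0.487 ± 0.0396 FPKM) were higher. The hyaluronan-binding proteoglycan Vcan was higher (67.6 ± 3.25 against 1.9979 ± 0.463 FPKM), and the small leucine-rich proteoglycans Ogn (0.184 ± 0.0328 against 164 ± 16.4 FPKM) and Fmod (0.00714 ± 0.00753 against 43.1 ± 0.641 FPKM) were lower.

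Hedgehog and Wnt genes divided between both directions, as did all genes tested (49.0% higher and 31.5% lower). Of hedgehog genes 6 of 13 were higher and 7 lower (3 and 7 under all 5 scalings). The feedback inhibitor Hhip was higher (5.45 ± 0.343 against 0.0555 ± 0.0113 FPKM), the co-receptors Boc (1.31 ± 0.0900 against 7.24 ± 0.292 FPKM) and Cdon (1.07 ± 0.145 against 5.79 ± 0.159 FPKM) and the factor Gli3 (0.444 ± 0.0856 against 2.26 ± 0.167 FPKM) were lower, and the call of the receptor Ptch1 (12.7 ± 1.39 against 8.04 ± 0.927 FPKM) did not hold under all scalings. Of Wnt genes 12 of 27 were higher and 11 lower (7 and 11 under all 5 scalings). The receptor Fzd1 measured 102, 100.03 and 102 FPKM in the Glioblastoma libraries and 8.45, 8.74 and 7.92 FPKM in the Astrocytes libraries (log2 difference 3.45, SE 0.05, adjusted p = 1.01e-07), and NSC held 5.91 ± 0.462 FPKM. Fzd9 (29.3 ± 0.263 against 0.511 ± 0.0552 FPKM) and the ligand Wnt7b (19.8 ± 0.0789 against 0.577 ± 0.0320 FPKM) were higher, the ligand Wnt5b (1.02 ± 0.129 against 21.7 ± 2.65 FPKM), the receptor Fzd5 (1.07 ± 0.0900 against 10.034 ± 0.313 FPKM) and the secreted antagonist Sfrp1 (1.16 ± 0.112 against 22.0 ± 0.738 FPKM) lower, and the related Sfrp2 higher (8.52 ± 0.691 against 0.125 ± 0.0468 FPKM).

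Genes of energy and lipid metabolism were divided as well, as were all genes tested (49.0% higher and 31.5% lower). Glycolysis and hypoxia genes came to 14 higher and 14 lower of 34 (9 and 14 under all 5 scalings). Hexokinase 2, Hk2 (19.7 ± 1.54 against 6.13 ± 0.38003 FPKM), and the oxidase Ero1l of the endoplasmic reticulum (61.1 ± 1.63 against 9.73 ± 0.905 FPKM) were higher with Vegfa. The glucose transporter Slc2a1 (3.59 ± 0.306 against 15.8 ± 1.33 FPKM), the phosphofructokinase subunits Pfkm (69.8 ± 3.16 against 211 ± 22.5 FPKM) and Pfkp (24.8 ± 0.610 against 74.3 ± 7.78 FPKM) and the lactate dehydrogenase subunit Ldhb (119.8 ± 2.37 against 1124 ± 88.8 FPKM) were lower. Vegfa and Slc2a1, both known hypoxia targets, thus went in opposite directions. Of sterol and fatty acid synthesis genes 15 of 29 were higher and 8 lower, 7 and 8 under all scalings. Sqle (54.9 ± 1.35 against 16.8 ± 1.66 FPKM), Lss (31.2 ± 0.690 against 10.3 ± 0.703 FPKM) and Cyp51 (61.6 ± 2.85 against 19.3 ± 2.05 FPKM), enzymes of late sterol synthesis, and the elongase Elovl6 (19.7 ± 1.01 against 4.52 ± 0.318 FPKM) were higher, and the desaturases Scd1 (38.5 ± 0.171 against 91.6 ± 2.45 FPKM) and Fads2 (58.3 ± 1.82 against 177 ± 16.9 FPKM) lower.

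Membrane protein genes of neural cells went in opposite directions within several families, beside 49.0% higher and 31.5% lower over all genes tested. The potassium channel Kcnj10, which clears potassium in astrocytes, measured 0.290, 0.201 and 0.183 FPKM in the Glioblastoma libraries and 56.2, 45.1 and 58.8 FPKM in the Astrocytes libraries (log2 difference -5.47, SE 0.11, adjusted p = 1.83e-07), while the channel-interacting protein Kcnip3 (50.2 ± 1.49 against 3.34 ± 0.416 FPKM) and the channels Kcnd2 (10.8 ± 0.210 against 1.22 ± 0.0450 FPKM) and Kcnma1 (5.62 ± 0.686 against 0.39986 ± 0.0180 FPKM) were higher. Potassium and chloride channels together came to 9 higher and 10 lower of 22 (7 and 10 under all 5 scalings). The glutamate receptor Grm5 measured 82.9, 79.2 and 81.0 FPKM in the Glioblastoma libraries and 1.42, 2.16 and 1.33 FPKM in the Astrocytes libraries (log2 difference 4.97, SE 0.12, adjusted p = 3.53e-07), and NSC held 57.4 ± 3.44 FPKM. The AMPA receptor subunit Gria1 (0.371 ± 0.114 against 61.7 ± 3.88 FPKM), the receptor Grm3 (0.0636 ± 0.0272 against 5.33 ± 0.370 FPKM) and the GABA receptor subunit Gabrb1 (0.0283 ± 0.00377 against 9.75 ± 0.305 FPKM) were lower, and the GABA transporter Slc6a11 higher (27.5 ± 0.458 against 0.582 ± 0.0954 FPKM). N-cadherin, Cdh2, was lower (16.1 ± 0.0695 against 113 ± 1.40 FPKM), and Cdh13 (24.8 ± 1.84 against 1.83 ± 0.274 FPKM), Cdh4 (16.3 ± 0.846 against 2.35 ± 0.265 FPKM) and Cdh20 (16.5 ± 0.438 against 3.39 ± 0.223 FPKM) were higher. Guidance genes gave 16 higher and 16 lower of 36 (13 and 16 under all 5 scalings). Sema3b (1.61 ± 0.319 against 42.0 ± 5.15 FPKM), Ephb2 (3.36 ± 0.211 against 31.4 ± 1.70 FPKM) and Epha5 (1.79 ± 0.0740 against 22.9 ± 1.18 FPKM) were lower. Efnb3 (2.71 ± 0.0928 against 0.257 ± 0.0260 FPKM) and the netrin receptor Dcc (2.23 ± 0.157 against 0.0247 ± 0.00556 FPKM) were higher.

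Transcripts of enzymes that write or remove methyl marks on DNA and proteins, with their cofactors, were higher in the main. Of 36 genes 26 were higher and 6 lower, 16 and 6 under all scalings. Dnmt1, which copies DNA methylation during replication, measured 52.6, 50.1 and 50.9 FPKM in the Glioblastoma libraries and 5.12, 5.88 and 4.90 FPKM in the Astrocytes libraries (log2 difference 3.05, SE 0.07, adjusted p = 3.10e-07), and NSC held 12.2 ± 0.824 FPKM. Suv39h2 (6.58 ± 0.324 against 0.635 ± 0.0306 FPKM) and the Polycomb subunit Suz12 (25.5 ± 0.153 against 8.62 ± 0.0715 FPKM) were higher, and Setd7 (16.5 ± 2.01 against 98.7 ± 2.23 FPKM), Ezh1 (5.76 ± 0.0561 against 10.7 ± 0.790 FPKM) and the X-linked demethylase Kdm6a (8.21 ± 0.779 against 16.7 ± 0.376 FPKM) lower. Of the MYC, telomerase and drug resistance genes 15 of 18 were higher and 3 lower (10 and 3 under all 5 scalings). Hmga1 (23.6 ± 0.832 against 1.48 ± 0.224 FPKM) and the repair protein Mgmt (1.78 ± 0.180 against 0.466 ± 0.0701 FPKM), which counters alkylating drugs, were higher, and the exporter Abcc1 lower (5.14 ± 0.742 against 16.8 ± 0.298 FPKM). The isocitrate dehydrogenases Idh1 and Idh2, mutated in lower grade gliomas, were lower, at 48.1 ± 2.04 against 57.7 ± 6.03 FPKM and 78.4 ± 2.05 against 112 ± 11.9 FPKM, the former with a call that was lost when any of 5 single libraries was left out, and the chromatin remodeller Atrx was higher (90.3 ± 4.54 against 44.3 ± 2.64 FPKM).

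Transcription factor genes that mark position along the body axis differed as well. All 9 trunk HOX genes tested were higher (21 were listed and the others were below 1 FPKM in too many libraries). HOX genes are known for the hindbrain and the trunk, not for cortex or cerebellum. Hoxa7 measured 12.7, 12.2 and 13.7 FPKM in the Glioblastoma libraries and 0, 0 and 0 FPKM in the Astrocytes libraries, and Hoxd8 measured 15.2, 13.1 and 15.1 FPKM in the Glioblastoma libraries and 0, 0 and 0.0111 FPKM in the Astrocytes libraries. Astrocytes are listed at or next to 0 in each library. A member could pass the filter only by its Glioblastoma level, so the count is no independent sign. They came from the A and D clusters, and NSC were at or near 0 too (Hoxa7 0.0250 ± 0.0187 FPKM, Hoxd8 0.00986 ± 0.0112 FPKM). Hindbrain and cerebellar factors divided, with 9 higher and 5 lower of 14 (8 and 5 under all 5 scalings). En1 (2.45 ± 0.0913 against 0.146 ± 0.0196 FPKM), En2 (2.76 ± 0.167 against 0.486 ± 0.0231 FPKM), Irx1 (10.8 ± 1.35 against 0.210 ± 0.0678 FPKM) and Irx3 (2.32 ± 0.0837 against 0.178 ± 0.0268 FPKM) were higher. Zic1 (0.0457 ± 0.0487 against 15.3 ± 1.47 FPKM) and Zic4 (0.00878 ± 0.00865 against 3.14 ± 0.408 FPKM), factors of cerebellar granule cells, were lower. Of 18 genes listed for cerebellar granule progenitors 8 reached the filter, 3 higher and 5 lower (2 and 5 under all 5 scalings). Atoh1, their defining factor, was 0.0370 ± 0.0296 against 0 ± 0 FPKM. Since the Astrocytes libraries are labelled cortex, these counts cannot check the tissue label Cerebella. Of forebrain factors 4 of 10 were higher and 6 lower (3 and 6 under all 5 scalings). Otx1 (0.495 ± 0.106 against 3.54 ± 0.151 FPKM) was lower, Dlx1 (2.92 ± 0.463 against 0.0628 ± 0.0208 FPKM) and Nr2f2 (4.30 ± 0.0684 against 0.487 ± 0.176 FPKM) higher.

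Among the autosomes and the X, the 3 chromosomes with the lowest median differences were 4, 16 and 18. Chromosome Y, with only 11 genes tested, had a median relative difference of -1.16. The median relative difference was -0.57 over 941 genes of chromosome 4, -0.66 over 487 genes of chromosome 16 and -0.59 over 404 genes of chromosome 18. Of the other autosomes and the X, the lowest was chromosome 2 at -0.18 and the highest chromosome 15 at 0.30 and chromosome 11 at 0.28. Lower genes made up 52.0%, 54.6% and 53.5% of the tested genes of chromosomes 4, 16 and 18, against 31.5% of all genes. In windows of 10 Mb with at least 20 tested genes, the median lay below that of all genes in 14 of 14 windows of chromosome 4, 9 of 9 of chromosome 16 and 9 of 9 of chromosome 18, and in 85 of 211 windows elsewhere. Windows with fewer genes were not assessed, and the least low windows of chromosomes 16 and 18 were at -0.13 and -0.17. The 3 Glioblastoma libraries, each set against the Astrocytes mean, gave medians of -0.583, -0.574 and -0.565 for chromosome 4, -0.664, -0.676 and -0.655 for chromosome 16 and -0.568, -0.555 and -0.585 for chromosome 18. The Astrocytes libraries set against their own mean stayed between -0.0167 and 0.0162 on these chromosomes, which shows only their scatter around that mean. Chromosomes 4, 16 and 18 were picked by these same differences. The shares, window counts and library medians therefore describe the pattern and do not test it.

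**Figure D5:**
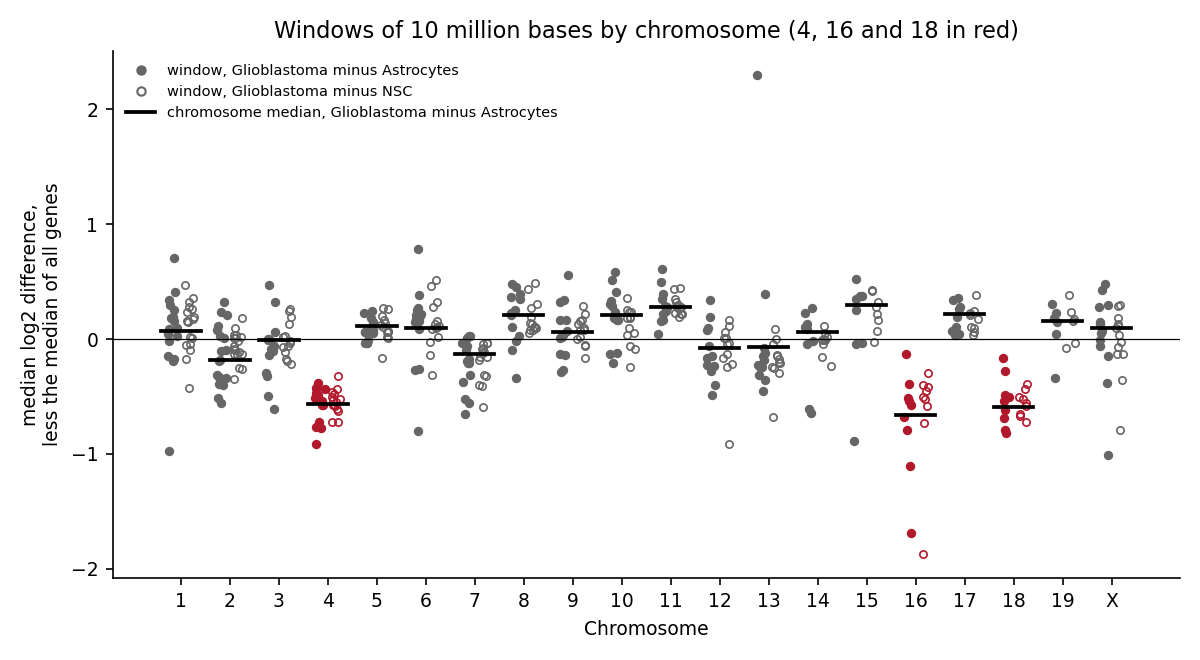
Median log2 difference of each window of 10 Mb, less the median of all genes, by chromosome; filled points compare Glioblastoma with Astrocytes and open points Glioblastoma with NSC, and the bar is the median over the genes of the chromosome against Astrocytes. All windows of chromosomes 4, 16 and 18 lie below 0, and the highest point is the histone window of chromosome 13.

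The same chromosomes were low against cultures other than Astrocytes. Relative medians against NSC were -0.55, -0.56 and -0.53 for chromosomes 4, 16 and 18, and against MIM-Astrocytes -0.56, -0.58 and -0.57. All 14, 9 and 9 windows were below 0 there too. Such counts were not particular to these chromosomes. Of the 15 windows of chromosome 7, 12 were below 0 against Astrocytes, 15 against NSC and 14 against MIM-Astrocytes. The relative median of chromosome 7 against Astrocytes was -0.13. On chromosome 13, 10 of 12 windows were below 0 in each comparison. These comparisons share the Glioblastoma libraries. NSC less Astrocytes, with no Glioblastoma library in it, gave medians of 0.02, 0.00 and 0.11. Over the 6824 protein-coding genes at 5 FPKM or more in all 4 groups, a choice made after the pattern was seen, the relative medians against Astrocytes were -0.63, -0.64 and -0.55, and 79.5%, 84.9% and 79.0% of those genes lay below the median of all. As ratios these are 0.645, 0.642 and 0.683 times the median ratio of all 6824 genes. DNA copy number was not measured in these files, and its part in the pattern was not tested. Cdkn2a and Mtap, both on chromosome 4, were higher in Glioblastoma. The lowest single window was chromosome 16 from 70000001 to 80000000 (relative median -1.69, 22 genes), and the highest was chromosome 13 from 20000001 to 30000000 (2.30, 99 genes), where a cluster of replication-dependent histone genes lies.

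Genes of the sex chromosomes differed too. Xist, the RNA that silences one X in female cells, measured 0.199, 0.0984 and 0.122 FPKM in the Glioblastoma libraries and 23.2, 18.6 and 25.4 FPKM in the Astrocytes libraries (log2 difference -4.35, SE 0.12, adjusted p = 4.92e-07), and the Y-linked helicase gene Ddx3y measured 5.50, 5.81 and 5.83 FPKM in the Glioblastoma libraries and 15.2, 16.5 and 13.5 FPKM in the Astrocytes libraries (log2 difference -1.26, SE 0.08, adjusted p = 1.73e-05). Astrocytes thus held both kinds of transcript, as NSC did (Xist 103 ± 10.992 FPKM, Ddx3y 6.91 ± 0.388 FPKM), while Glioblastoma held Ddx3y with Xist near 0. The sex of the animals is not labelled, and its part in other differences was not tested. Telomerase RNA, Terc, was 63.4 ± 8.14 against 0.145 ± 0.0598 FPKM, and the embryonic chromatin protein Hmga2 7.12 ± 0.166 against 0.0265 ± 0.00262 FPKM and Mycn 3.23 ± 0.0802 against 0.00313 ± 0.00542 FPKM, each at or near 0 in Astrocytes. Tert, which encodes the telomerase protein, was below the filter and not tested. It measured 0.472, 0.227 and 0.181 FPKM in the Glioblastoma libraries and 0.267, 0.282 and 0.2015 FPKM in the Astrocytes libraries, with overlapping groups.

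Markers of other cells that a brain culture can hold were looked at for both groups. Of 20 microglial and macrophage genes 3 reached the filter, of 15 endothelial genes 4, and of the muscle genes none. The microglial Lyz2 was lower (0.0424 ± 0.00699 against 2.04 ± 0.598 FPKM) and Cd68 higher (2.05 ± 0.352 against 0.909 ± 0.304 FPKM), the latter not under all 5 scalings. Of meningeal genes 4 of 11 tested were higher and 7 lower (4 and 7 under all 5 scalings). Of ependymal genes 1 of 8 was higher and 7 lower (0 and 7 under all 5 scalings). The meningeal genes higher in Glioblastoma were Pdgfra and Bmp7, given above, Tbx18 (1.62 ± 0.0914 against 0.143 ± 0.0208 FPKM) and Lama1 (1.33 ± 0.109 against 0.00204 ± 0.00191 FPKM). In Astrocytes several meningeal genes were present, Ogn at 164, Islr at 92.6 and Cemip at 57.6 FPKM, and ependymal ones, Foxj1 at 37.5 and Dynlrb2 at 15.8 FPKM, with Glioblastoma below 1 FPKM for all of these. The summed ependymal list ran from 4.71 to 5.38 FPKM in Glioblastoma and 91.3 to 113 FPKM in Astrocytes, and the summed meningeal list from 28.5 to 29.6 FPKM in Glioblastoma and 347 to 393 FPKM in Astrocytes. Their part in the lower matrix and complement genes of Glioblastoma was not tested. Of 32 neuronal genes listed 13 were tested, 10 higher and 3 lower (8 and 3 under all 5 scalings). In these lists too, a member near 0 in either group passed the filter only by its level in the other. Elavl4 (13.5 ± 0.685 against 0.157 ± 0.0826 FPKM) and Gap43 (42.8 ± 1.89 against 7.81 ± 0.819 FPKM) were higher and Camk2a (0.0119 ± 0.0137 against 8.69 ± 0.274 FPKM) lower.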

How the data were processed

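Total RNA of 12 mouse cell culture libraries was sequenced, and 6 of them were compared here. The authors deposited FPKM per gene for each library, beside the bounds of an interval and a status, made with Cufflinks on GRCm38 per the submitters' processing notes. The aligner, strandedness, version and filters are not given in the sources used here, so reads of overlapping genes on opposite strands were not separated. Each table held 53989 lines for 53932 identifiers, and values of the 45 repeated identifiers were added. GENCODE M21 supplied names, biotypes and places, and RefSeq (GRCm38.p6) the promoter windows. The filter left 15783 genes, of which 15 without an OK status in all 6 libraries were left out, Gapdh among them. Differences of log2(FPKM + 1), which understate changes of weakly expressed genes, were tested with limma 3.58.1 in R 4.3.3. The test was two-sided, with a variance trend, 4 residual degrees of freedom and Benjamini-Hochberg over all genes. It was also run on simulated data with few changed genes and no scaling shift. Those data do not show how it behaves where most genes differ, as here. NSC were compared in a fit of all 12 libraries with 8 residual degrees of freedom. Totals were compared by two-sided exact permutation tests. Depth was estimated from the deposited intervals, read as 2 standard deviations to each side, and covers counting and assignment error only. Tables were handled with Python 3.11.15, pandas 2.3.3, NumPy 2.4.6 and SciPy 1.17.1, and figures drawn with matplotlib 3.10.9.

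Genes named were the 20 largest called differences each way (groups not overlapping, at least 5 FPKM in the higher group, no unnamed models, pseudogenes or small RNAs), up to 4 members per list and direction with the smallest p, and genes fixed for glioma and astrocyte biology. Some picked by this rule are not reported here. Amt, Asns, Atf4, Atoh1, Cdkn1a, Gldc, Orc1, Shmt1 and Slc3a2 fall outside it and were chosen after their values were seen, as was the promoter search. The genes and the 55 lists were chosen with earlier results of these data known. Alternatives were pseudocounts of 0.1 and 0.5, other filters, 4 other scalings, the highest line of an identifier, all 12 libraries, a replicate block, array weights, no variance trend, the status not used and each replicate left out.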

Additional observations from a re-analysis of the deposited data

How the results depend on the processing

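The number of genes called stayed within 1.5 times of 12699 under all alternatives run. Rescaling to a common total left 4433 genes higher, and at 2-fold 2142 higher and 3973 lower. Without a filter 7540 genes were lower of more genes tested. With a mean of at least 5 FPKM, which tests fewer genes, 2954 were lower, 4016 were at least 2-fold apart and 1395 of these lower. Leaving out single libraries gave 12046 to 12714 genes called, 7333 to 7882 higher and 4661 to 4988 lower, and 6022 to 6194 at 2-fold, 3548 to 3793 higher and 2401 to 2474 lower. Deviations of libraries with the same replicate number correlated at -0.0150 to 0.00536, which gives no sign of pairing. With 3 libraries per group this cannot show whether libraries shared a batch. A replicate block gave 12202 called genes, 7435 higher and 4767 lower. The relative medians of chromosomes 4, 16 and 18 stayed below 0. They were -0.66, -0.76 and -0.68 with a pseudocount of 0.1, -0.66, -0.68 and -0.57 with a mean of at least 5 FPKM, -0.56, -0.65 and -0.57 with median-of-ratios scaling, -0.57, -0.64 and -0.55 with quantile normalization, -0.57, -0.64 and -0.55 with a common total and -0.63, -0.64 and -0.55 over the genes at 5 FPKM or more in all 4 groups. Without single libraries they ran from -0.57 to -0.56, -0.68 to -0.63 and -0.59 to -0.57. Alternatives for chromosomes and for the protein-coding share, which without single libraries was 44.0% to 46.8% in Glioblastoma and 59.6% to 63.1% in Astrocytes, were chosen after seeing the data. For single genes named in the text, 5236 of 5308 recomputed differences kept direction and side of the threshold, 42 lost the call and 8 gained it. The sign turned for Slc1a3 (-0.29, -0.80, -0.60 and -0.31 under the 4 other scalings, in the order given in the report, -0.003 with array weights, whose estimate stopped before convergence, -0.0012 without Glioblastoma replicate 1, and -0.0456 to 0.0727 over all libraries left out, the lowest without Astrocytes replicate 3), Nes (-0.20, -0.23, -0.50 and -0.22) and Mat2a (-0.13, -0.32, -0.44 and -0.15). With a common total it turned for Irf1 (-0.15), Mdm2 (-0.23), Nf1 (-0.30) and Serpina3n (-0.26). It also turned for Nf1 without mitochondrial genes and small RNAs (-0.0193), Orc1 with array weights (-0.43) and Slc3a2 after quantile normalization (-0.13). The cause was not tested. Without single libraries the call of Idh1 held only without Astrocytes replicate 3, that of Mat2a only without Astrocytes replicate 2, that of Ahcy only without Glioblastoma replicate 1 or Astrocytes replicate 3, and that of Nf1 was lost without Glioblastoma replicate 1 or 2 or Astrocytes replicate 1. Near 1 FPKM the half-width of the deposited interval was 31.1% to 35.3% of the value and near 10 FPKM 9.68% to 10.6%, which limits weakly expressed genes.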

Other observations

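Other genes among the 20 largest differences downward were the serine protease Prss23 (2.42 ± 0.415 against 795 ± 77.0 FPKM), the lipase Pla2g7, which breaks down platelet-activating factor (1.33 ± 0.283 against 449 ± 65.4 FPKM), the sodium pump regulator Fxyd1 (0.632 ± 0.179 against 293 ± 48.0 FPKM), Fbxo2, which sorts glycoproteins for degradation (2.93 ± 0.328 against 657 ± 92.3 FPKM), C1qtnf5 (0.647 ± 0.161 against 227 ± 20.1 FPKM), the junction protein Tmem47 (3.23 ± 0.174 against 585 ± 55.7 FPKM) and the organic anion transporter Slco1a4 (0.00202 ± 0.00349 against 117 ± 10.4 FPKM). Pla2g7 was high in NSC as well, at 395 ± 30.3 FPKM, whereas Slco1a4 was near 0 there, at 0.0926 ± 0.0141 FPKM.

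Immediate early genes gave 14 of 19 tested higher and 2 lower, 10 and 2 under all 5 scalings, with Ier2 (17.7 ± 0.959 against 3.36 ± 0.292 FPKM), Egr2 (4.41 ± 0.738 against 0.430 ± 0.143 FPKM) and Btg2 (20.5 ± 0.314 against 5.87 ± 0.308 FPKM) higher and Klf6 lower (22.3 ± 1.82 against 28.8 ± 1.51 FPKM). Of genes known from embryonic stem cells 4 of 15 reached the filter: Esrrb (1.96 ± 0.144 against 0.0458 ± 0.0405 FPKM) and Klf4 (1.56 ± 0.259 against 0.141 ± 0.0543 FPKM) were higher, Tfcp2l1 (0.332 ± 0.0665 against 28.0 ± 1.05 FPKM) and Tdgf1 (0.0974 ± 0.0170 against 2.14 ± 0.294 FPKM) lower. The 13 protein genes of the mitochondrial genome gave 10 higher and 1 lower as deposited but 2 and 1 under all 5 scalings, so their direction as a group rests on the scaling.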
